A study of Homo sapiens with 6 samples.

Results

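The genes described here are the 8 catenin genes and LRRTM1, a gene that lies inside one of them, in 22Rv1-ABHD5 cells grown with or without doxycycline (Dox). The 9 genes were found by their symbols among the 27470 genes of the count table. They were chosen by the read counts of CTNNA2 in the same comparison, since this gene went from 0 reads in every library without Dox to 87 to 180 reads with Dox. For CTNNA2 the values are therefore given as a description, with no test. The other catenins were taken because they belong to the family, and LRRTM1 because of its position.

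22Rv1 is a human castration-resistant prostate cancer cell line. The cells carried ABHD5, the coactivator of the triglyceride lipase ATGL, on a lentiviral vector under a Dox-inducible promoter and had been selected with G418, so the cells of both conditions held the transgene. RNA was sequenced from 3 control libraries, grown without Dox, and 3 ABHD5-overexpressing libraries, grown with Dox, both for 48 h. No parent cells with Dox were analysed here, so effects of Dox and of ABHD5 cannot be told apart. The labels do not say whether the replicates came from separate cultures, so p-values measure the spread between these libraries, which may be technical.

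Catenins join cadherins, the adhesion receptors of the cell surface, to the cytoskeleton. β-Catenin and its close relative plakoglobin bind the tail of a cadherin, α-catenin bound to them holds actin filaments, and the δ-catenins, of which p120-catenin is the best known, bind the cadherin closer to the membrane and keep it at the surface. β-Catenin that is free of cadherin is marked by a destruction complex and degraded. When Wnt signals block this, it enters the nucleus and switches on genes with TCF/LEF factors. CTNNA2 encodes αN-catenin, the α-catenin of neurons, and CTNND2 encodes a δ-catenin best known from the brain.

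The libraries held 3394672 to 7271771 reads on genes, and reads come from the end of the transcript next to the poly(A) tail. Levels are given as CPM, read counts scaled to the library size after TMM normalization, and differences as log2 fold changes with Dox over without Dox from edgeR's quasi-likelihood test over 12233 genes, with p-values adjusted over all of them. In that test 25.5% of genes passed an adjusted p of 0.05, 11.9% higher and 13.7% lower with Dox. The libraries of the conditions did not overlap for 39.5% of genes, 19.0% higher and 20.5% lower with Dox. With library totals in place of TMM, the median of all genes moved from 0.02 to 0.14 on the log2 scale, and higher genes made up 65.7% of the calls rather than 46.4%. ABHD5 itself lay between 58.0 and 63.5 CPM without Dox and between 91.7 and 130.8 CPM with Dox, and rose by 0.91 on the log2 scale (edgeR, adjusted p = 1.978e-04). Counts by gene symbol do not tell the transgene from the cell's own ABHD5 gene, and how fully transgene transcripts were counted was not tested. All 9 prostate luminal markers examined were detected. With Dox, 5 of these 9 were lower past the threshold. In bulk RNA, fewer cells of a type and less RNA per cell cannot be told apart.

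CTNNA2 lies on chromosome 2 from 79185231 to 80648861 on the forward strand (hg38). It had 0, 0 and 0 reads in the libraries without Dox and 123, 87 and 180 reads with Dox. In CPM these were 26.7, 24.2 and 23.6 with Dox, so the 3 libraries lay close together and far from those without Dox. Taking 3 reads as the limit that a count of 0 allows, which was 0.524 to 0.930 CPM in the libraries without Dox and covers counting error only, CTNNA2 was at least 26.7-fold higher with Dox than the highest of these limits (mean with Dox of 24.9 ± 1.65 CPM, SD, n = 3). Measured from the library with the lowest level the bound was 25.4-fold.

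Few genes of the table shared this pattern. Of 12795 genes with 3 reads or fewer in each library without Dox, 21 had at least 10 reads in each library with Dox, and CTNNA2 ranked 2 among the 21 by mean CPM with Dox. Of the 21, 8 had no read at all without Dox, CTNNA2 included. The genes whose levels ran closest to those of CTNNA2 were found by the Euclidean distance of log2(CPM + 1) over the 6 libraries. The nearest was GPD1, a cytosolic glycerol-3-phosphate dehydrogenase, at a distance of 0.94, with 0, 1 and 3 reads without Dox and 84, 71 and 188 with Dox. NGFR, a receptor for neurotrophins, followed at 1.29, and FLG, which encodes the skin protein filaggrin, at 2.02. LOC729737 stood at 2.05, and DSCAM, an adhesion molecule of neurons, at 2.07. DSCAM shared with CTNNA2 the 0 reads in each library without Dox and had 50, 27 and 118 reads with Dox. These 5 genes were selected for their likeness, which is a description of 6 libraries that differ mainly by condition.

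**Figure D1:**
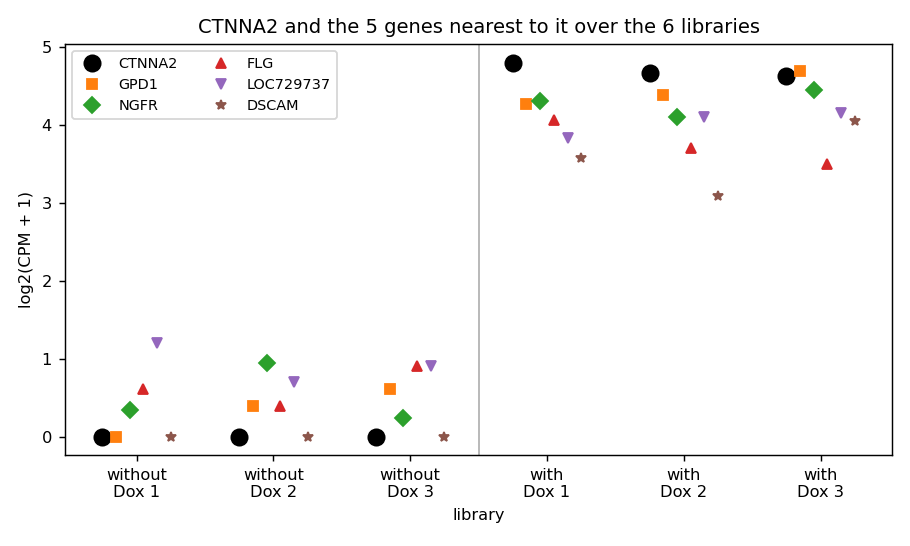
Levels of CTNNA2 (black) and of the 5 genes nearest to it, as log2(CPM + 1), in the 3 libraries without Dox (left of the line) and the 3 with Dox (right), where each point is 1 library. All 6 genes stay at or under 1.31 CPM without Dox, and with Dox the 3 points of CTNNA2, at 23.6 to 26.7 CPM, lie closer together than those of DSCAM, at 7.51 to 15.5 CPM.

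The annotation gives CTNNA2 several start sites. Of its 12 coding transcripts, 8 end within 1 kb of the end of the gene, and these 8 begin at 6 different positions, so reads at the poly(A) end cannot tell which start was used. Of these 8 transcripts, 4 begin beyond LRRTM1, inside the gene. The sequences before 2 of the starts, that before LRRTM1 and that before CTNND2, the catenin gene that rose in the test, are shown for comparison. They are from RefSeq (GRCh38.p14), run 5ʹ to 3ʹ along the strand of the gene and have each CpG in capitals. The first is cut to 199 bases, where the earliest exon around that start begins, and the others cover the 250 bases before the start. They lie at chr2:79512801-79512999 (forward strand), chr2:80313129-80313378 (forward strand), chr2:80304753-80305002 (reverse strand) and chr5:11904447-11904696 (reverse strand).
CTNNA2 main start: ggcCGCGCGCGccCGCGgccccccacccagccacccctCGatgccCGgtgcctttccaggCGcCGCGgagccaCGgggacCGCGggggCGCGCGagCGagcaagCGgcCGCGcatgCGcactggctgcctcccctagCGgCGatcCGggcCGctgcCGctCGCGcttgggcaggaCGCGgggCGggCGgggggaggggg
CTNNA2 internal start: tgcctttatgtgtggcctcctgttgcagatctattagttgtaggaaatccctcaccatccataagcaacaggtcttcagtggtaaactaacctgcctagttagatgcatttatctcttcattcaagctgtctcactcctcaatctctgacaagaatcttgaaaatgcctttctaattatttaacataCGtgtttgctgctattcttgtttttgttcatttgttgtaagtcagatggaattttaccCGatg
LRRTM1 start: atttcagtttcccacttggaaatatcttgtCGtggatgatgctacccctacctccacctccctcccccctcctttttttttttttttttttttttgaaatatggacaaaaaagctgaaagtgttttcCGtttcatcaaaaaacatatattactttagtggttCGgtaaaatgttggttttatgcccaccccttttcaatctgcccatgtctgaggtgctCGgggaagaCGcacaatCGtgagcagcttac
CTNND2 main start: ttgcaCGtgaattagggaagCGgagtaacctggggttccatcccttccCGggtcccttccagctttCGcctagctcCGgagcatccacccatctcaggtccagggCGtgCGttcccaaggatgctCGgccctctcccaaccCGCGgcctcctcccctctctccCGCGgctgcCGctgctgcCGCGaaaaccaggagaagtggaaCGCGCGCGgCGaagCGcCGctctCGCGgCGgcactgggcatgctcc

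The capitals show how far these starts differ, with 33 CpG in the 199 bases printed for the main CTNNA2 start. The full 250 bases before this start, which run into exons of other CTNNA2 transcripts, held 39 CpG. This was more than 97.3% of 34943 such windows of RefSeq starts, of which the median held 11. The window of CTNND2 held 25, more than 78.4% of windows. The internal CTNNA2 start shown, at 80313379, held 2 and the LRRTM1 start 6, both under the median. The GC box GGGCGG, counted on both strands with overlapping matches, occurred 3 times in the full 250 bases before the main CTNNA2 start. This box was not found before the internal start, LRRTM1 or CTNND2. It was held by 42.5% of all windows. None of these 4 windows held the TATA box TATAAA on either strand, which 10.8% of all windows held. The same was true of the E box CACCTG, a sequence that SNAI and ZEB factors bind, held by 17.5% of all windows. The TCF/LEF core CTTTGAT, held by 2.27% of all windows, was not found in them either. Matches of letters are a description only, and methylation was not measured.

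LRRTM1, which encodes a synaptic adhesion protein of neurons, lies on the reverse strand within intron 7 of the 19-exon CTNNA2 transcript, on chromosome 2 from 80288351 to 80304752. Its start is 353 bases from that of the nearest coding CTNNA2 transcript, which runs the other way. That CTNNA2 start, at 80305105, is not the internal start whose sequence is shown above. LRRTM1 had 0 reads in each of the 6 libraries, which allows up to 0.394 to 0.835 CPM in the libraries with Dox, so that a change was not detectable at this depth. LRRTM1 and CTNNA2 share 0 exon bases in GENCODE 44. The same arrangement is found in the other α-catenin genes. LRRTM2 lies within intron 7 of CTNNA1 on the other strand, and LRRTM3 within intron 7 of CTNNA3. LRRTM2 had 57, 44 and 80 reads without Dox and 40, 51 and 86 with Dox, with a log2 fold change of -0.33 (standard error 0.23, edgeR, adjusted p = 0.3199). LRRTM2 and CTNNA1 share 445 exon bases, where reads of the pair could be confused. LRRTM3 and its host CTNNA3 had 0 reads throughout.

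Few reads fell on the counted genes around CTNNA2 in either condition. The table holds 12 other genes within 3 Mb of it, 3 of them inside its span. Of the 12, 8 had 0 reads in every library, 3 reached 1 read in 1 library, and LRRTM4 alone had more than 3 reads. LRRTM4, another LRRTM gene 1592 kb before CTNNA2, had 13, 6 and 19 reads without Dox and 10, 13 and 27 with Dox, a log2 fold change of 0.09 (standard error 0.39, edgeR, adjusted p = 0.8885) whose sign turned without replicate 2 without Dox or replicate 3 with Dox. The REG genes, which encode secreted lectins of the gut and pancreas and stand next to the 5ʹ end of CTNNA2, had 1 read in all, for REG3G in replicate 1 with Dox. None of the 12 passed the threshold, and 1 of them could be tested.

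**Figure D2:**
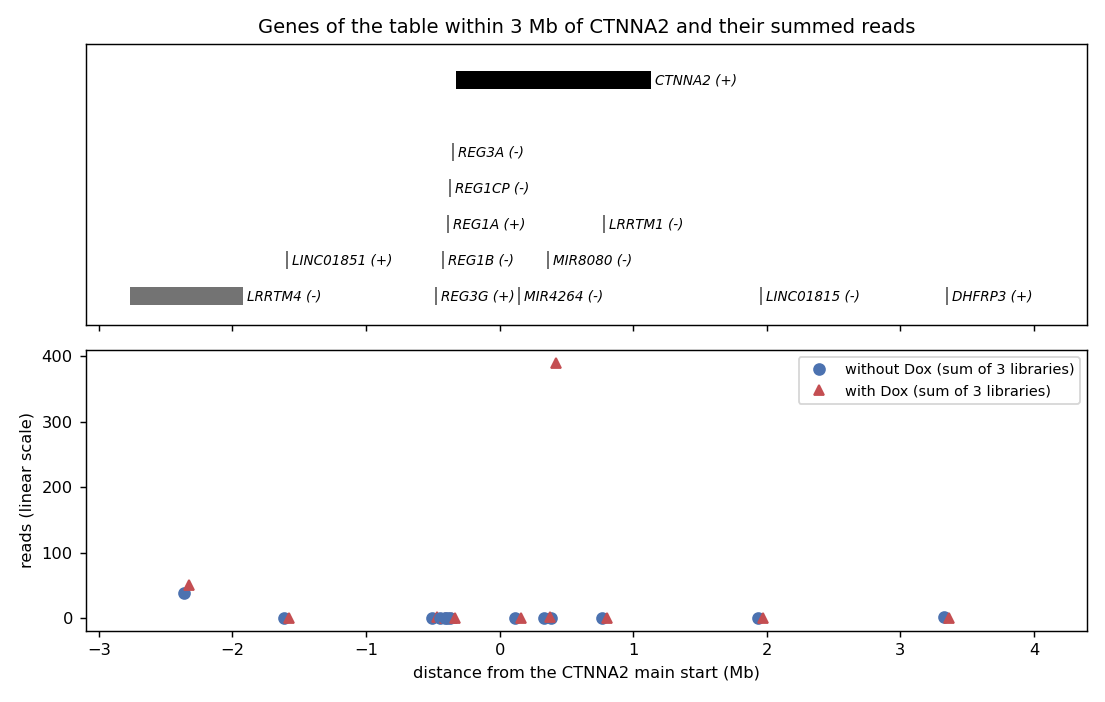
Upper panel, genes of the count table within 3 Mb of CTNNA2, drawn to scale by their distance in Mb from its main start, and lower panel, reads of each gene summed over the 3 libraries without Dox (circles) and with Dox (triangles), on a linear scale. CTNNA2 goes from 0 to 390 reads while LRRTM1 inside it and the REG genes before it stay at 0 or 1.

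CTNNA1 encodes αE-catenin, the α-catenin of epithelia, and lies on chromosome 5 from 138610967 to 138935034. It had 360, 386 and 414 CPM without Dox and 392, 365 and 324 CPM with Dox. The conditions overlapped, and the log2 fold change of -0.10 (standard error 0.13, edgeR, adjusted p = 0.5917) turned to 0.02 with library totals alone. CTNNA3, the α-catenin of heart muscle and testis, on chromosome 10 from 65912457 to 67763637, had 0 reads in every library. CTNNAL1 encodes α-catulin, a relative of the α-catenins that also resembles vinculin, and lies on chromosome 9 from 108942569 to 109013522. It fell from 149, 128 and 142 CPM to 94.2, 109 and 111 CPM, so that each library with Dox was below each library without Dox. Its log2 fold change was -0.42 (standard error 0.13, edgeR, adjusted p = 0.02276). The call was lost without replicate 1 or 3 without Dox or replicate 1 with Dox (edgeR, adjusted p = 0.09834, 0.05933 and 0.1208) and with library totals alone (edgeR, adjusted p = 0.09601), with the value between -0.48 and -0.29 over its alternatives.

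CTNNB1 encodes β-catenin and lies on chromosome 3 from 41194741 to 41260096. It had 263, 215 and 274 CPM without Dox and 310, 254 and 370 CPM with Dox. Replicate 2 was the lowest library in both conditions, and the ranges overlapped. The log2 fold change of 0.31 (standard error 0.15, edgeR, adjusted p = 0.1302) did not pass the threshold, but it passed without replicate 2 with Dox (0.44, edgeR, adjusted p = 0.02715) and with library totals alone (0.44, edgeR, adjusted p = 0.03725). Without replicate 3 with Dox it was 0.17. JUP encodes plakoglobin, or γ-catenin, which serves both adherens junctions and desmosomes, and lies on chromosome 17 from 41754604 to 41786931. Its levels were 91.7, 84.7 and 107 CPM without Dox and 125, 85.4 and 116 CPM with Dox, with a log2 fold change of 0.21 (standard error 0.15, edgeR, adjusted p = 0.3454). As with CTNNB1, replicate 2 was the lowest library in each condition.

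CTNND2, the δ-catenin best known from the brain, rose. It lies on chromosome 5 from 10971836 to 11904446 on the reverse strand. It had 54, 58 and 83 reads without Dox and 273, 206 and 340 reads with Dox, or 14.1, 18.0 and 14.5 CPM against 59.4, 57.3 and 44.7 CPM. The lowest library with Dox was well above the highest without. Its log2 fold change was 1.79, or 3.47-fold (standard error 0.18, edgeR, adjusted p = 9.721e-07), which ranked 154 of the 12233 genes from the top. It lay between 1.71 and 1.92 over 13 alternatives, and the call was made in each of them. Unlike CTNNA2, CTNND2 was detected in every library without Dox.

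CTNND1, which encodes p120-catenin, lies on chromosome 11 from 57753243 to 57819546. Its levels were 40.7, 40.6 and 28.6 CPM without Dox and 27.0, 32.8 and 24.96 CPM with Dox, and replicate 3 without Dox fell among the libraries with Dox. Its log2 fold change was -0.38 (standard error 0.18, edgeR, adjusted p = 0.1393), and without that library it was -0.54 and passed the threshold (edgeR, adjusted p = 0.04751). In GENCODE 44, 65.8% of the last exon of CTNND1 is shared with another gene model, and the table holds a row for the read-through gene TMX2-CTNND1 with 0 reads in every library, and the effect of this on the count of CTNND1 was not tested. Of the 6 catenins tested besides CTNNA2, then, 1 rose and 1 fell, against 25.5% of all genes called, and their median log2 fold change was 0.05 against 0.02 for all genes tested. CTNNA3 and LRRTM1 did not pass the filter on low counts.

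**Figure D3:**
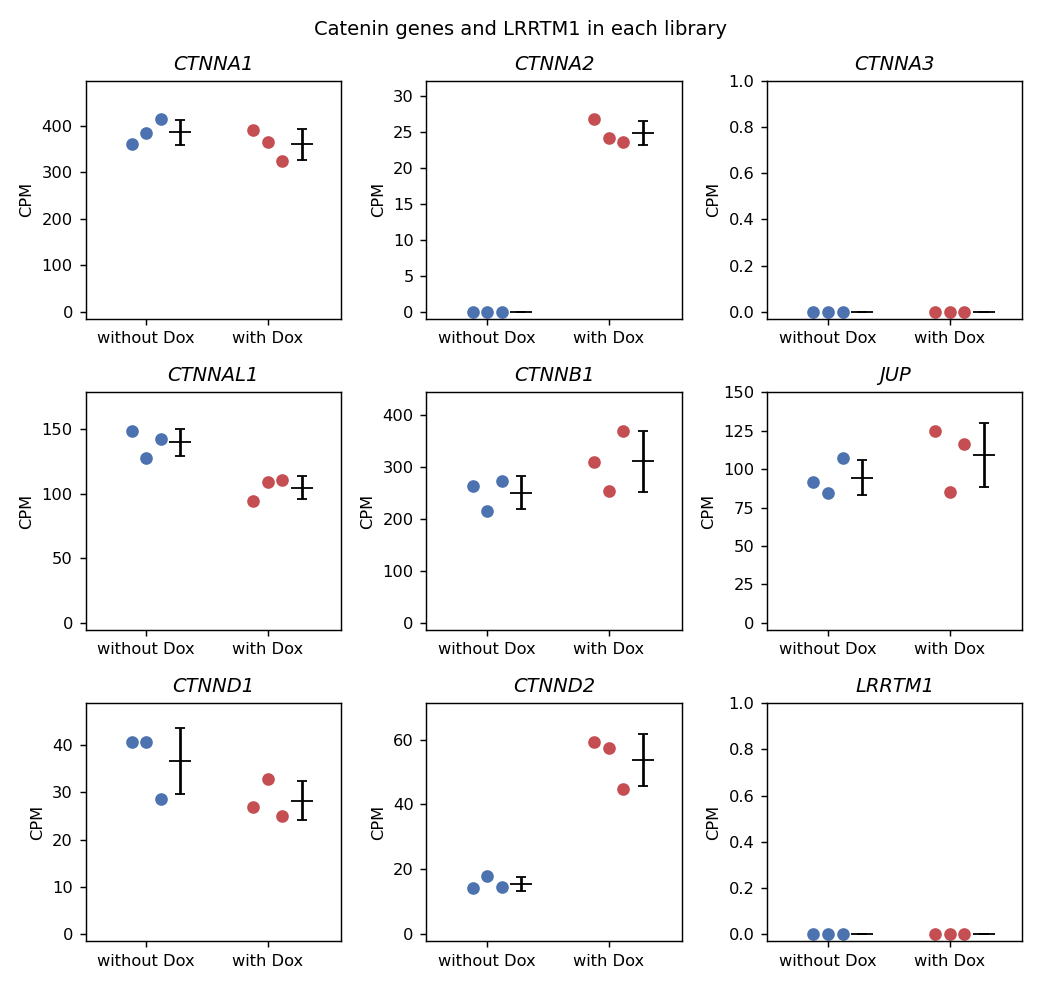
Levels in CPM of the 8 catenin genes and LRRTM1. Each point is 1 library (3 without Dox in blue, 3 with Dox in red), and the bar beside the points is the mean ± SD. CTNNA2 and CTNND2 lie higher in each library with Dox, CTNNAL1 lies lower in each, the conditions overlap for CTNNA1, CTNNB1, JUP and CTNND1, and CTNNA3 and LRRTM1 are at 0.

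Since CTNNA2 and CTNND2 are best known from neurons, 13 neuronal markers were examined beside them. Of these, 5 could be tested, and TUBB3, SYP and SYT1 were higher and MAP2 lower with Dox, 4 of 5 genes called against 25.5% of all genes tested. The markers were chosen with earlier results of these data known, so this share is a description. TUBB3, a neuronal β-tubulin that cancer cells often express, had a log2 fold change of 1.39 (edgeR, adjusted p = 8.368e-07). SYP and SYT1 had log2 fold changes of 0.79 and 0.95 (edgeR, adjusted p = 0.001467 and 0.03614). SNAP25, at 0.30, did not pass the threshold (edgeR, adjusted p = 0.2297). Of the 13 markers, 6 had 3 reads or fewer in every library, and 3 of these (RBFOX3, DCX and NEFL) had 0 reads throughout. Summed over the 13 markers, the level was 199 to 208 CPM without Dox and 265 to 295 CPM with Dox. TUBB3 alone made up 43.3 to 48.4 CPM of this without Dox and 105 to 129.5 CPM with Dox, while MAP2 went from a mean of 111.8 to 86.8 CPM. Of 7 fibroblast markers, 2 could be tested. COL1A1 was higher (log2 fold change 1.22, edgeR, adjusted p = 0.03134), though the conditions overlapped, and LUM had a log2 fold change of -0.78 (edgeR, adjusted p = 0.1903). The fibroblast sum was 6.20 to 11.0 CPM without Dox and 9.46 to 13.5 CPM with Dox. The part of these genes in the values of CTNNA2 and CTNND2 was not tested.

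Around p120-catenin and δ-catenin, 5 relatives were examined, of which 4 could be tested. Of these, 1 passed the threshold, or 25%, against 25.5% of all genes tested. ARVCF, an armadillo protein that binds cadherins in the manner of p120-catenin, rose from 31.9, 20.5 and 27.9 CPM to 48.5, 43.97 and 44.9 CPM, a log2 fold change of 0.77 (standard error 0.17, edgeR, adjusted p = 0.002818), and the conditions did not overlap. The plakophilins PKP2, PKP3 and PKP4 did not pass the threshold. PKP3, which sits in desmosomes, had a log2 fold change of -0.01. Of the 9 partners of p120-catenin, 7 were tested and 1 was called, or 14.3%, against 25.5% of all genes tested. This was the small GTPase CDC42, which rose by 0.46 on the log2 scale (standard error 0.16, edgeR, adjusted p = 0.04098). The ranges of CDC42 overlapped, and its call was lost in 5 of 13 alternatives.

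Cadherins are the receptors that catenins bind. Of 23 cadherin genes, 5 passed the filter, while 14 had 3 reads or fewer in every library. Of the 5 tested, 2 rose and none fell at the threshold, or 40% called. Of all genes tested, 25.5% were called, 11.9% of them all being higher with Dox. Short of the threshold, CDH12 was lower in each library with Dox (log2 fold change -1.04, edgeR, adjusted p = 0.08263). CDH3 was higher in each (0.36, edgeR, adjusted p = 0.08153). CDH1, the E-cadherin of epithelia, had 276, 226 and 288 CPM without Dox and 252, 191 and 283 CPM with Dox, a log2 fold change of -0.12 (standard error 0.15, edgeR, adjusted p = 0.5999), which was 0.0017 with library totals alone and 0.019 without replicate 2 with Dox. CDH24 had 10.2, 9.61 and 8.55 CPM without Dox and 18.0, 13.9 and 32.3 CPM with Dox. Its log2 fold change of 1.23 (standard error 0.28, edgeR, adjusted p = 0.003191) was 0.78 without replicate 3 with Dox, where it still passed (edgeR, adjusted p = 0.02821). CDH2, the N-cadherin of neurons and mesenchyme, went from 7, 6 and 9 reads to 22, 19 and 25 reads. Its log2 fold change was 1.31 (standard error 0.40, edgeR, adjusted p = 0.02213), and this call rested on few reads. It was lost in 6 of 12 alternatives, among them DESeq2 (adjusted p = 0.05313) and the fits without any 1 library without Dox or without replicate 1 or 2 with Dox (edgeR, adjusted p = 0.06047 to 0.09818).

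In the desmosome, the junction that plakoglobin anchors to keratin filaments, 4 of 9 genes were tested and 2 rose. None fell, so 50% were called, against 25.5% of all genes tested. DSP, which encodes desmoplakin, the link from plakoglobin to keratin, had 115, 120 and 124 CPM without Dox and 186, 227 and 150 CPM with Dox, a log2 fold change of 0.64 (standard error 0.14, edgeR, adjusted p = 0.003459). DSC2, a desmosomal cadherin, rose by 0.72 on the log2 scale (standard error 0.23, edgeR, adjusted p = 0.03006), a call lost in 4 of 13 alternatives. DSG2, another desmosomal cadherin, lay between 58.9 and 63.97 CPM in the 6 libraries, with a log2 fold change of 0.06 (edgeR, adjusted p = 0.7606).

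Of 19 genes for actin linkers and nectins at the adherens junction, 18 were tested, 2 rose and 3 fell. This made 27.8% called, against 25.5% of all genes tested. AJUBA, a LIM protein that binds α-catenin, had 8.62, 8.06 and 12.9 CPM without Dox and 28.7, 25.3 and 43.0 CPM with Dox, a log2 fold change of 1.69 (standard error 0.24, edgeR, adjusted p = 4.959e-05). ZYX, which encodes zyxin, another LIM protein, rose by 0.59, and this call was lost without replicate 1 without Dox or replicate 3 with Dox. NECTIN3, a nectin adhesion receptor, had a log2 fold change of -0.84, and ACTN1, an actin crosslinker that binds α-catenin, had -0.52 (edgeR, adjusted p = 0.00205 and 0.003709). VASP, which lengthens actin filaments, had -0.48 (edgeR, adjusted p = 0.01636), lost without replicate 1 without Dox and with library totals alone. VCL, which encodes vinculin, had a log2 fold change of 0.07 and did not pass the threshold.

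α-Catenins are also known to restrain the Arp2/3 complex, which branches actin filaments, and αN-catenin does so in neurons. All 20 genes of this complex and its activators were tested, and 3 rose and 1 fell, which made 20% called against 25.5% of all genes tested. Of 9 genes for subunits of the WAVE complex, an activator of Arp2/3, 3 rose and the other 6 (WASF2, WASF3, CYFIP1, ABI1, ABI2 and BRK1) did not pass the threshold. These 9 are a part of the 20, were not a list of their own and were set apart after their values were seen. Their count is therefore a description. Of all genes tested, 11.9% were called higher. WASF1 had a log2 fold change of 0.71 (edgeR, adjusted p = 0.008724), CYFIP2 of 0.66 (edgeR, adjusted p = 0.01774) and NCKAP1 of 0.38 (edgeR, adjusted p = 0.03831). ARPC5L, an isoform of a subunit of the complex itself, had -0.39 (edgeR, adjusted p = 0.0316). WASF1 kept its call in all 13 alternatives, while CYFIP2 lost it in 4, NCKAP1 in 5 and ARPC5L in 5.

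The nuclear arm of β-catenin was examined through 3 lists. Of 14 genes of the destruction complex, 11 were tested, 2 rose and none fell, or 18.2% called against 25.5% of all genes tested. TNKS, a tankyrase that marks axin for degradation, had a log2 fold change of 0.44 (edgeR, adjusted p = 0.01702). CSNK1D, a casein kinase, had 0.38 (edgeR, adjusted p = 0.04674). These calls were lost in 3 and 8 of 13 alternatives. Of 17 TCF/LEF factors and co-regulators, 17 were tested, 2 rose and 3 fell, or 29.4% called against 25.5% of all genes tested. TLE3, a corepressor of TCF factors, had 235, 265 and 235 CPM without Dox and 139, 134 and 109 CPM with Dox, a log2 fold change of -0.95 (standard error 0.13, edgeR, adjusted p = 3.93e-05). PYGO1, a coactivator that reaches β-catenin through BCL9, had -0.60 and TLE1, another corepressor, -0.55 (edgeR, adjusted p = 0.01578 and 0.04264), calls lost in 2 and 9 of 13 alternatives. TCF7L1 and TCF7L2, both TCF factors, rose by 1.31 and 0.60 (edgeR, adjusted p = 0.02687 and 0.03137), calls lost in 7 of 12 and 4 of 13 alternatives.

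Of 20 textbook targets of β-catenin and TCF, 12 were tested, 1 rose and 6 fell, or 58.3% called against 25.5% of all genes tested. Their median log2 fold change was -0.43 against 0.02 for all genes. The list was chosen with earlier results of these data known, so these values are a description and no test of the list. With library totals alone, 5 of its genes were called. SOX9, a transcription factor, went from 306, 253 and 244 CPM to 44.4, 35.6 and 44.4 CPM, a log2 fold change of -2.68 (standard error 0.14, edgeR, adjusted p = 4.717e-10). CD44, a receptor for hyaluronan, had -0.83, and CCND1, which encodes cyclin D1, had -0.52 (edgeR, adjusted p = 2.794e-04 and 0.006687). RNF43 and ZNRF3, ligases that remove Wnt receptors, had -0.95 and -0.58 (edgeR, adjusted p = 0.01068 and 0.02902). MYC had -0.71 (edgeR, adjusted p = 0.03489). DKK1, a secreted inhibitor of Wnt signals, went the other way, from 10, 2 and 20 reads to 78, 41 and 181 reads, a log2 fold change of 2.85 (standard error 0.38, edgeR, adjusted p = 2.507e-05). AXIN2, the target most widely used to read this pathway, had 3.66, 6.51 and 5.76 CPM without Dox and 3.70, 3.34 and 5.12 CPM with Dox, which overlapped (log2 fold change -0.34, edgeR, adjusted p = 0.499), and LEF1 had -0.26 (edgeR, adjusted p = 0.2606). These genes have other regulators as well, and their changes say nothing of β-catenin protein, which was not measured.

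**Figure D4:**
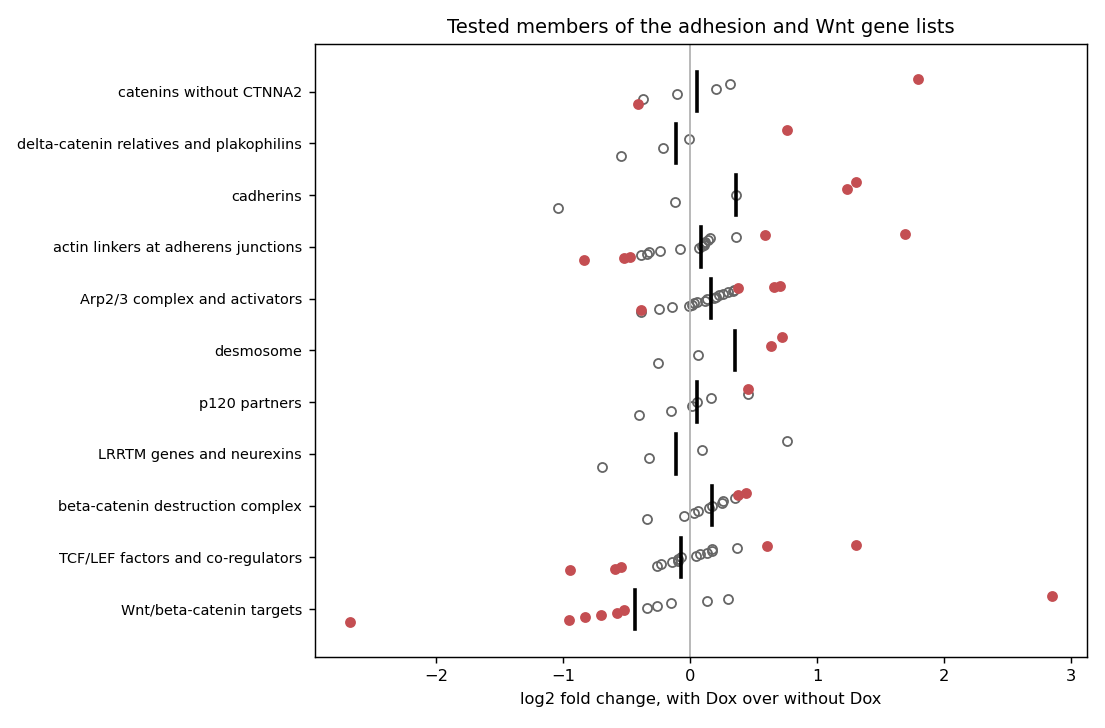
Log2 fold change with Dox over without Dox of each tested gene in the adhesion and Wnt lists other than CTNNA2, which is left out (1 point a gene, filled red where the adjusted p of edgeR was under 0.05, spread vertically only to separate points), and the black bar is the median of the list. CTNND2 is the rightmost of the 6 catenins shown, at 1.79, and most filled points among the Wnt targets lie left of 0, with SOX9 at -2.68 and DKK1 at 2.85.

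Among the LRRTM genes and their presynaptic partners the neurexins, 7 in all, 4 were tested. None of the 4 passed the threshold, against 25.5% of all genes tested. Over the adhesion and Wnt lists other than the catenins, the cadherins and the Wnt targets, 20 of 85 tested genes passed the threshold, or 23.5%, against 25.5% of all genes tested.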

How the data were processed

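QuantSeq 3ʹ libraries of 22Rv1-ABHD5 cells, 3 without Dox and 3 with Dox, were analysed. The authors aligned reads to hg38 (STAR) and deposited a table of raw counts by gene symbol. CASAVA 1.8.2, FastQC, HTSeq and edgeR also stand in the submitters' processing notes, while the annotation and the strand setting are not given in the sources used here. The labels name the forward version of the kit and the paper's methods the reverse one. For each library the authors also deposited a normalized signal, which served as an alternative on log2(signal + 1). Names differed between the files in 27 rows, which that alternative left out.

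The counts were tested in R 4.3.3 with edgeR 4.0.16 (TMM, filterByExpr and the quasi-likelihood test), and a gene passed at a Benjamini-Hochberg adjusted p under 0.05. DESeq2 1.42.0 and limma 3.58.1 served as alternatives, beside other scalings, other filters, a replicate block and leaving out each library in turn. The 5 rows naming no gene were left out. Reads that fell on no gene were 32.5% to 34.6% of all reads in a column without Dox and 35.6% to 39.5% with Dox, with no overlap between the conditions, and ambiguous ones 3.05% to 3.37%. The part of this difference in the results was not tested. Replicates differed from each other beyond sampling noise (chi-square per degree of freedom 4.07 to 11.3). The limits set from counts of 0 cover counting error only, and the reads have no molecular identifiers. Standard errors are the absolute log2 fold change over the square root of the F statistic of edgeR's test. They include the spread between libraries. Gene coordinates came from GENCODE 44 on hg38.

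The members and lists were chosen with earlier results of these data known. Named were every member, ABHD5, the 3 genes per list and direction that passed with the lowest adjusted p, the 5 genes nearest to CTNNA2 and its neighbours with more than 3 reads. Other genes were chosen after their values were seen.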

Additional observations from a re-analysis of the deposited data

How the results depend on the processing

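The call of the ABHD5 log2 fold change was made in each of 13 alternatives (0.81 to 1.06). The CTNNA2 bound was 26.7-fold with TMM and 29.2-fold with library totals alone. Genes called over the whole table were 3125, and 2181 to 3112 when 1 library was left out. Catenins called besides CTNNA2 were 2, and 1 to 3 across those fits: 1 without replicate 1 of either condition and 3 without replicate 2 with Dox. Cadherins called were 2, but 1 under a minimum of 10 counts per library and 1 with DESeq2, and 1 to 2 across the fits that left out 1 library, with 1 without any 1 library without Dox or without replicate 1 with Dox. Wnt targets called were 7, and 5 to 7 across those fits. Members of the other lists called were 20, and 8 to 22 across those fits: 8 without replicate 1 without Dox, 11 without replicate 1 with Dox and 12 without replicate 3 with Dox. The causes were not tested, beyond the smaller number of libraries or genes. Directions turned for CTNNA1 (0.0176) and CDH1 (0.0017) with library totals alone. Across the fits without 1 library, CDH1 lay between -0.2491 and 0.019 and LRRTM4 between -0.1073 and 0.2824. None of these 3 genes passed the threshold. Of the 28 called catenin, adhesion and Wnt list genes that the naming rule picked (CTNNA2 apart), 13 were called in every alternative, 15 lost the call in at least 1, and none turned direction.

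For libraries that share a replicate number across the conditions, the correlation of their deviations over 12233 genes was -0.01, 0.25 and 0.09. Libraries of unlike number were not compared, so these values cannot decide whether the numbers pair the libraries. With the replicate block, 3537 genes and 2 catenins besides CTNNA2 passed the threshold. Depth limits CTNNA3 and LRRTM1, for which 0 reads allow up to 0.930 CPM in the shallowest library.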

Other observations

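Some adhesion genes outside the tested set also had more reads with Dox, at levels too low to pass the filter. CDH15, the cadherin of muscle, had 1, 2 and 0 reads without Dox and 12, 7 and 12 with Dox. DSC1, a desmosomal cadherin of the upper epidermis, had 0, 0 and 0 reads without Dox and 4, 4 and 3 with Dox. PKP1, a plakophilin, had 2, 3 and 3 reads without Dox and 1, 1 and 2 with Dox, too few to give a direction. These genes were singled out after their values were seen and have no test.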
